A study of Mus musculus with 12 samples.

Results

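The genes described here are the core of the transforming growth factor beta (TGF-beta) pathway: the ligand Tgfb1, the receptors and coreceptors Tgfbr1, Tgfbr2, Tgfbr3 and Eng, the signal carriers Smad2, Smad3 and Smad4, and the brakes Smad7 and Skil. They were chosen by name, because the fusion studied is known to alter the response of blood cells to TGF-beta, and with earlier results of these data known. All 10 were found among the 40481 genes of the table. Hematopoietic stem cells (HSCs) of mice were sorted from the liver of E14.5 embryos or from the bone marrow of mice aged 8 weeks. The cells were wild type (WT) or carried inducible ETV6-RUNX1 (named iE/R in the series text), the fusion of the transcription factors ETV6 and RUNX1 found in childhood acute B-lymphoblastic leukemia. All 4 groups, WT included, were kept for 3 days in a medium made for HSC expansion with 1 µg/mL doxycycline, the drug used to switch such transgenes on, so the drug itself does not differ between genotypes. Each group had 3 RNA-seq libraries, and values are CPM, the reads of a gene scaled so that every library has the same total. The labels do not give the promoter or locus of the transgene, the surface markers of the sort, the sex or number of animals behind a library, or whether replicates came from separate animals, so the tests measure the spread between these libraries, which may be technical. No library was made without doxycycline.

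TGF-beta 1 is secreted in a latent complex and, once released, binds the type II receptor TGFBR2, which recruits and phosphorylates the type I receptor TGFBR1. The active type I receptor phosphorylates SMAD2 and SMAD3, which join SMAD4 and enter the nucleus to regulate genes. Among the genes so induced are Smad7 and Skil, whose products block the receptors and the SMAD complex in turn, and in blood TGF-beta is best known for holding stem cells out of division.

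The libraries held 32.3 to 64.5 M reads in genes, so that 3 reads, taken as the detection floor, corresponded to 0.0465 to 0.0928 CPM. The reads carry no molecular identifiers, and such floors cover counting error only. All 13 HSC and progenitor markers examined were above the floor in every library. By limma 9 were higher and 1 lower with ETV6-RUNX1 in fetal liver, and 8 higher and 1 lower in bone marrow. Over all genes tested, 24.8% were higher and 18.3% lower in fetal liver, and 14.4% and 4.93% in bone marrow. The summed level of the 13 was 1955 to 2319.9 CPM in WT and 4302 to 4502 CPM in ETV6-RUNX1 fetal liver, and 2116 to 2842 CPM and 3167 to 3483 CPM in bone marrow. Within that sum, the mean of Ly6a rose from 19.0 to 879.8 CPM in fetal liver and from 90.5 to 504 CPM in bone marrow. That of Cd48 fell from 183 to 21.5 CPM and from 167 to 40.1 CPM. In fetal liver, 5 of 6 tested erythroid markers were also higher (sums of 729 to 1009 CPM in WT and 1426 to 2207 CPM with ETV6-RUNX1). So were 3 of 4 tested macrophage markers (1.78 to 3.46 CPM and 8.91 to 22.9 CPM, summed over 7), where 24.8% of all genes were higher. Klf1 of the erythroid list was not higher (means of 0.654 and 0.175 CPM), nor was Mrc1 of the macrophage list (1.47 and 1.25 CPM). The macrophage markers C1qa and C1qc were at or under the floor in every ETV6-RUNX1 fetal liver library. In bone marrow 0 of the tested erythroid or macrophage markers were called. The erythroid sums there were 234 to 518 CPM in WT and 420 to 632 CPM with ETV6-RUNX1. The macrophage sums were 2.51 to 3.16 CPM and 5.16 to 11.3 CPM, with no overlap. Of 6 hepatocyte markers, Afp, Apoa1 and Apoa2 were above the floor in every library and Alb, Ttr and Serpina1a were not, with sums of 15.9 to 37.9 CPM over the 12 libraries, most of it Afp. The summed level of 7 lymphoid markers did not exceed 2.79 CPM. The part of these cell types in the changes of the 10 genes was not tested. Runx1, whose reads can include those of the fusion, was 1.88 times higher with ETV6-RUNX1 in fetal liver (limma log2 difference 0.90 ± 0.14 SE, adjusted p = 0.000153) and 1.77 times higher in bone marrow (0.81 ± 0.14, adjusted p = 0.00178). The female-specific RNA Xist was at 51.7 to 89.3 CPM in the fetal liver libraries and at 0.175 to 1.27 CPM in the bone marrow ones, and the Y-linked gene Ddx3y was 2.13 times higher with ETV6-RUNX1 than in WT fetal liver (adjusted p = 0.00147 by limma). Sex and tissue therefore cannot be told apart in the comparisons between fetal liver and bone marrow. Between the fetal liver genotypes Xist overlapped, with means of 67.1 CPM in WT and 63.4 CPM with ETV6-RUNX1. The Y-linked genes Uty, Eif2s3y and Kdm5d were, like Ddx3y, higher with ETV6-RUNX1 there with no overlap. They rose 3.26, 1.93 and 1.63 times (limma adjusted p = 0.000248, 0.00236 and 0.0363). In bone marrow none of these Y-linked genes was called. Whether the sex mix differed between the fetal liver genotypes is not known. The part of sex in the fetal liver effects and in the interaction was not tested. Reads in processed pseudogenes, intron-less copies of other genes, made up 1.23 to 1.91% of each ETV6-RUNX1 fetal liver library, 1.65 to 2.37% in WT fetal liver, 2.13 to 2.55% in ETV6-RUNX1 bone marrow and 1.60 to 2.23% in WT bone marrow.

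All 10 genes passed the filter on low values (1 CPM or more in 3 or more libraries out of 12), and each comparison was tested with limma on log2(CPM + 1) over the 14271 genes that passed, with adjusted p under 0.05 as the threshold. In fetal liver, 5 of the 10 genes were higher with ETV6-RUNX1 (Tgfbr1, Tgfbr2, Eng, Smad7 and Skil) and 0 were lower. Across all genes tested 43.1% changed in that comparison, 24.8% upward and 18.3% downward. In bone marrow, 3 of the 10 were higher (Tgfbr2, Eng and Skil) and 0 were lower, where 19.4% of all genes changed, 14.4% upward and 4.93% downward. Of the 10, 0 were lower at an unadjusted p under 0.05 in either tissue, and edgeR and DESeq2 each called 1 lower in fetal liver (Smad3) and 0 in bone marrow. The median log2 difference of the 10 genes was 0.44 in fetal liver, against 0.08 over all genes, and 0.34 in bone marrow, against 0.13 over all genes. The effect of ETV6-RUNX1 differed between the tissues for 1 of the 10, Skil, which was more strongly raised in fetal liver, while 9.19% of all genes passed that interaction test, 5.56% with a larger and 3.62% with a smaller difference in fetal liver. In bulk RNA, a change in the share of cells that express a gene and a change in RNA per cell cannot be told apart.

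**Figure D1:**
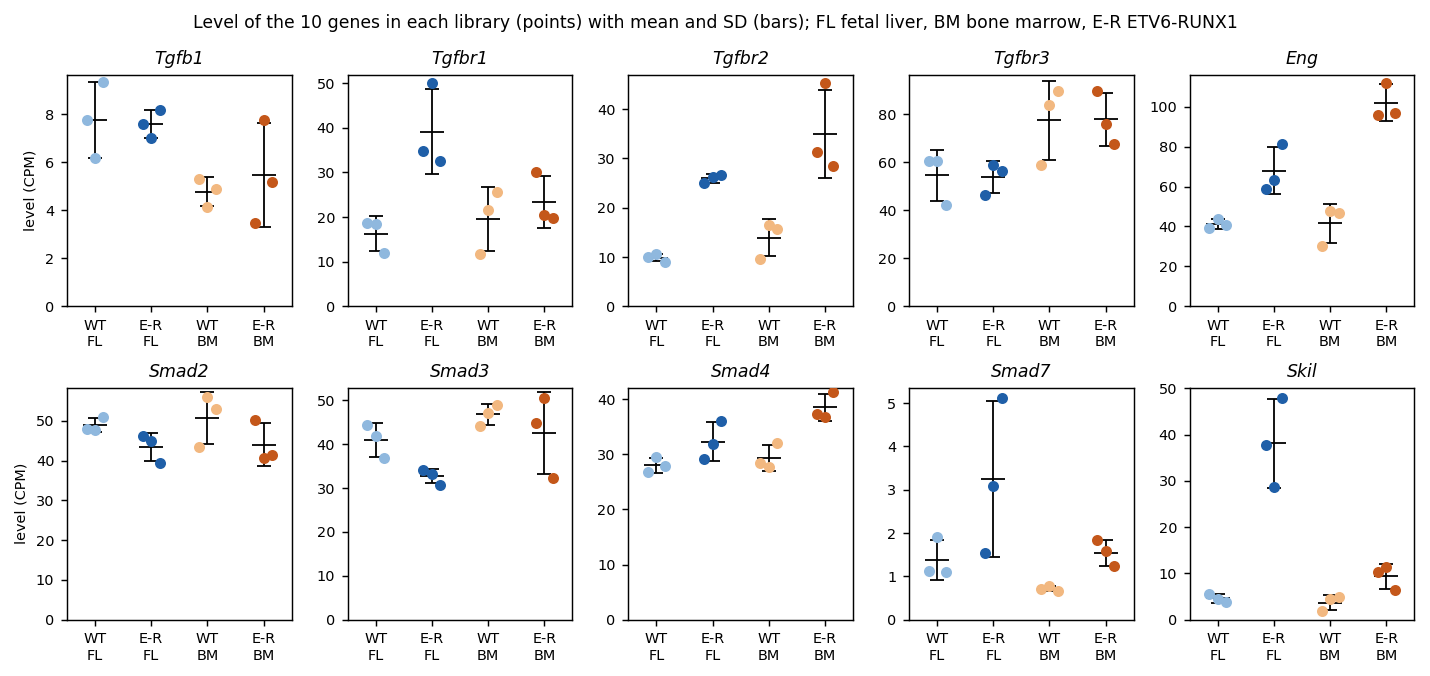
Level in CPM (y axis, from 0, a separate scale per gene) of the 10 genes in the 4 groups of 3 libraries (x axis); each point is 1 library, and bars give the mean and SD. Tgfbr2, Eng and Skil sit higher with ETV6-RUNX1 in both tissues with no overlap, while Tgfb1 and Tgfbr3 overlap between genotypes in both.

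Tgfb1 encodes the ligand. Its level in the 3 WT fetal liver libraries was 7.78, 6.17 and 9.35 CPM, and in the ETV6-RUNX1 fetal liver libraries 7.61, 7.0 and 8.19 CPM. In bone marrow it was 5.29, 4.13 and 4.91 CPM in WT and 3.46, 7.76 and 5.17 CPM with ETV6-RUNX1. The genotypes overlapped in both tissues, and the log2 difference was -0.01 in fetal liver (95% interval -0.52 to 0.49, adjusted p = 0.967) and 0.11 in bone marrow (-0.39 to 0.62, adjusted p = 0.77) by limma. These intervals bound any change on the log2(CPM + 1) scale but do not show that the levels were equal. The WT fetal liver libraries all lay above the WT bone marrow ones, by 1.63 times in the means, a difference that did not pass the threshold (log2 difference 0.59, interval 0.08 to 1.10, adjusted p = 0.131).

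Tgfbr2, the ligand-binding type II receptor (chr9:116084293-116175360, minus strand, GRCm38, GENCODE M21), rose with ETV6-RUNX1 by nearly equal amounts in the 2 tissues. It was at 10.1, 10.6 and 9.06 CPM in WT fetal liver and at 25.0, 26.3 and 26.7 CPM in ETV6-RUNX1 fetal liver. In bone marrow the WT libraries held 9.62, 16.6 and 15.6 CPM and the ETV6-RUNX1 libraries 31.4, 45.2 and 28.5 CPM. Every ETV6-RUNX1 library of a tissue lay above every WT library of that tissue. The means rose 2.63 times in fetal liver (log2 difference 1.31 ± 0.21 SE, adjusted p = 0.00023) and 2.51 times in bone marrow (1.28 ± 0.21, adjusted p = 0.00146) by limma, and the difference between the 2 effects was 0.04 (interval -0.61 to 0.68, adjusted p = 0.959).

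Tgfbr1, the type I receptor kinase (chr4:47353222-47414931, plus strand), rose in fetal liver. Its WT fetal liver libraries held 18.6, 18.5 and 11.9 CPM and the ETV6-RUNX1 ones 34.9, 50.0 and 32.5 CPM, a 2.39-fold higher mean with no overlap (limma log2 difference 1.21 ± 0.28 SE, adjusted p = 0.003). In bone marrow the libraries overlapped, at 11.7, 21.5 and 25.6 CPM in WT and 30.1, 20.5 and 19.7 CPM with ETV6-RUNX1, and the log2 difference of 0.29 did not pass (interval -0.30 to 0.88, adjusted p = 0.488). The fetal liver effect exceeded the bone marrow effect by 0.92 (interval 0.08 to 1.76), which missed the threshold with adjusted p = 0.151, so the effect on Tgfbr1 was not shown to differ between the tissues. That difference passed without WT bone marrow replicate 1, the library with the lowest bone marrow level (1.24, adjusted p = 0.0236 by limma). With the pseudogene share as a covariate the fetal liver difference of Tgfbr1 was 0.75 (adjusted p = 0.0327) and the bone marrow difference was also 0.75 (adjusted p = 0.0403).

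Eng encodes endoglin, a coreceptor of endothelial cells and HSCs (chr2:32646595-32682669, plus strand). It was at 39.1, 43.7 and 40.7 CPM in WT fetal liver and 59.0, 63.5 and 81.1 CPM in ETV6-RUNX1 fetal liver. The WT bone marrow libraries held 30.4, 47.6 and 46.6 CPM, near the WT fetal liver level, and the ETV6-RUNX1 bone marrow libraries held 95.7, 112 and 97.0 CPM, the highest of the 4 groups with no overlap. The mean rose 1.65 times in fetal liver (limma log2 difference 0.70 ± 0.18 SE, adjusted p = 0.00582) and 2.45 times in bone marrow (1.30 ± 0.18, adjusted p = 0.000395). The effect was smaller by 0.60 in fetal liver (difference -0.60, interval -1.13 to -0.06) with adjusted p = 0.144, which did not pass.

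Eng shares exonic bases with Fpgs on the opposite strand. The library kit keeps the strand, but the strand setting of the authors' counting is not given in the sources used here, so how reads of the shared bases were assigned is not known. Fpgs, an enzyme of folate metabolism, moved differently from Eng: in fetal liver its mean with SD (n = 3) fell from 20.6 ± 1.24 CPM to 11.8 ± 1.54 CPM with ETV6-RUNX1 (adjusted p = 0.00345 by limma), and in bone marrow its difference was 0.16 (adjusted p = 0.57). The summed level of 7 endothelial markers, all of them above the floor in every group, was also higher with ETV6-RUNX1. It went from 367 to 469 CPM in WT fetal liver to 717 to 904 CPM with ETV6-RUNX1, and from 423 to 590.2 CPM in WT bone marrow to 609.6 to 685 CPM. Esam and Tie1 had the highest means of the 7 in every group. In fetal liver these were 180 and 124 CPM in WT and 341 and 175 CPM with ETV6-RUNX1. Of the 7, 5 were higher in fetal liver, where 24.8% of all genes were, and 1 in bone marrow, where 14.4% were. Emcn had means of 18.7 CPM in WT and 12.9 CPM in ETV6-RUNX1 fetal liver, and of 23.3 and 24.5 CPM in bone marrow. For Kdr these were 6.79 and 6.32 CPM, and 4.26 and 2.70 CPM. Cdh5, a junction protein of endothelium, was at 15.4 to 15.6 CPM in ETV6-RUNX1 fetal liver against 5.26 to 7.91 CPM in WT, and at 0.124 to 0.248 CPM in ETV6-RUNX1 bone marrow against 0.448 to 0.604 CPM in WT. The endothelial receptor Tie1 was at 221 to 254 CPM in ETV6-RUNX1 bone marrow against 109 to 191 CPM in WT, and the adhesion protein Esam at 254 to 274 CPM against 186 to 239.7 CPM. The part of endothelial RNA in the changes of Eng was not tested.

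Tgfbr3, or betaglycan, presents ligand to the type II receptor. The genotypes overlapped in both tissues, with 42.3 to 60.7 CPM in WT and 46.5 to 59.0 CPM with ETV6-RUNX1 in fetal liver, and 58.8 to 89.7 CPM against 67.7 to 89.8 CPM in bone marrow. The means were 0.989 times WT in fetal liver (log2 interval -0.41 to 0.40, adjusted p = 0.989 by limma) and 1.00 times WT in bone marrow (-0.39 to 0.43, adjusted p = 0.955). Tgfbr3 was lower in fetal liver than in bone marrow in both genotypes by similar amounts, a log2 difference of -0.50 in WT (adjusted p = 0.116) and of -0.52 with ETV6-RUNX1 (adjusted p = 0.0548), neither past the threshold. Without WT bone marrow replicate 1, the WT difference was -0.68 and passed (adjusted p = 0.0193).

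**Figure D2:**
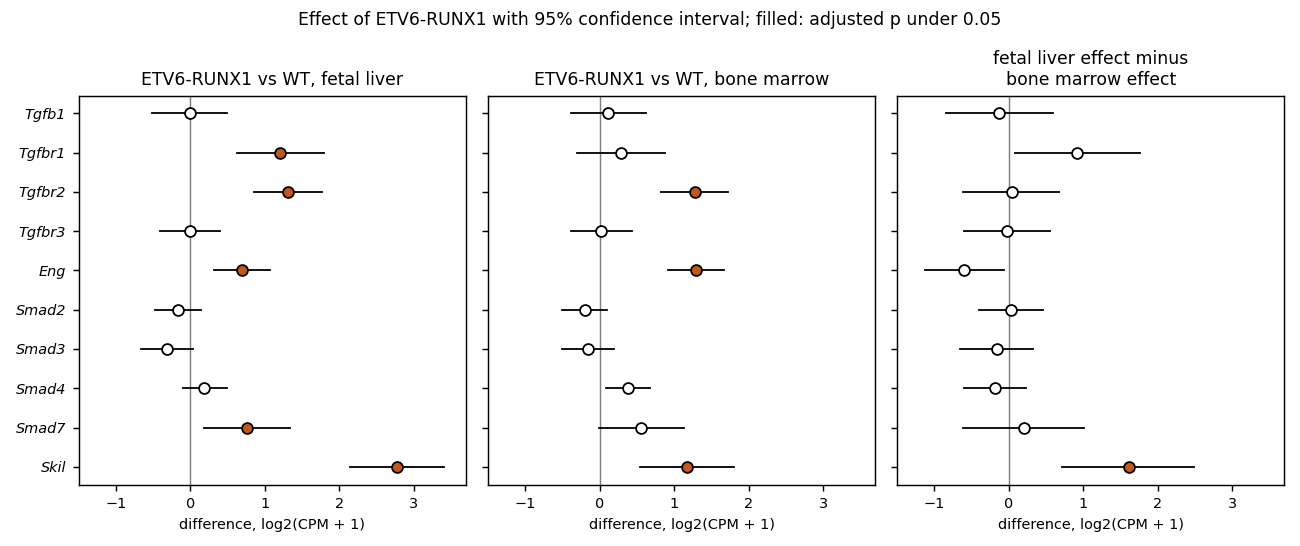
Difference on the log2(CPM + 1) scale (x axis) for the 10 genes (y axis), with the limma estimate as a circle and its 95% confidence interval as a line; the panels show the ETV6-RUNX1 effect in fetal liver, in bone marrow, and the former minus the latter, and filled circles passed adjusted p under 0.05. Tgfbr2 sits at 1.31 and 1.28 in the first 2 panels, and Skil, at 2.78 and 1.17, is the filled circle of the third.

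The upstream 250 bases of the receptor genes that moved are shown because all 3 genes rose in fetal liver, and the data themselves hold no measurement of binding there. The RefSeq promoter table used holds entries for 5 of the 10 genes, and those of the 3 raised receptors follow, 5′ to 3′ on the gene's strand and ending just before the RefSeq start (GRCm38.p6). Capitals mark each SMAD box (CAGAC on either strand). Tgfbr2 is chr9:116175364-116175613, minus strand; Eng is chr2:32646345-32646594, plus strand; Tgfbr1 is its first start, chr4:47352972-47353221, plus strand.
Tgfbr2: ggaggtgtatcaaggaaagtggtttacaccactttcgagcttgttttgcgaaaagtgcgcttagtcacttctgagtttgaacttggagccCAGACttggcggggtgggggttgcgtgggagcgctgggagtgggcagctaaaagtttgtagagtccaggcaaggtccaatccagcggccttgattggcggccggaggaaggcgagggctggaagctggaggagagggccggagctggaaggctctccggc
Eng: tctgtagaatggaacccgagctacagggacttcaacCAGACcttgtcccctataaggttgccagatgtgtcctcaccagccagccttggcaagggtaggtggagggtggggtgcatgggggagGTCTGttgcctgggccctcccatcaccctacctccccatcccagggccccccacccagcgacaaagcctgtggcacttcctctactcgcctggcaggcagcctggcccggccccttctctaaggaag
Tgfbr1: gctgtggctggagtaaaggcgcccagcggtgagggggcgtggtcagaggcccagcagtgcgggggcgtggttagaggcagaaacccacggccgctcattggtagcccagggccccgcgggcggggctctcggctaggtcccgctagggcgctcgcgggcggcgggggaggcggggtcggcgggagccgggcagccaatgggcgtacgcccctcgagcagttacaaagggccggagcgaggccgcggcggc
The Eng window holds the box at -214 to -210 and, on the other strand, at -127 to -123 from the start, and the Tgfbr2 window holds it at -160 to -156. The first Tgfbr1 window has no match, whereas a second annotated Tgfbr1 start has one at -203 to -199. Of all 32851 promoters of the table, 42.2% hold this short box in the same window, so its presence is common. It was searched after other motifs, on both strands, had no match in any of the 6 windows of these genes. They were a RUNX core (TGTGGT, in 14% of promoters), a flanked form of the ETS core (CCGGAA, 12.0%), a palindromic SMAD element (GTCTAGAC, 0.167%) and an AP-1 element (TGANTCA, 6.75%). The shorter ETS core GGAA was not searched, and it occurs in the Tgfbr2 and Eng windows printed above.

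Smad2 and Smad3 encode the receptor-activated SMADs. Neither passed in any comparison. Smad2 was at 47.7 to 50.9 CPM in WT and 39.3 to 46.1 CPM with ETV6-RUNX1 in fetal liver, and at 43.5 to 56.0 against 40.6 to 50.3 CPM in bone marrow, with log2 differences of -0.17 (interval -0.47 to 0.14, adjusted p = 0.361) and -0.20 (-0.51 to 0.10, adjusted p = 0.34) by limma.

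Smad3 held 44.4, 41.9 and 36.8 CPM in WT fetal liver and 34.1, 33.1 and 30.8 CPM with ETV6-RUNX1. The fetal liver groups did not overlap and the ETV6-RUNX1 mean was 0.796 times the WT mean, but the log2 difference of -0.32 missed the threshold (interval -0.66 to 0.03, adjusted p = 0.126 by limma). It passed in 5 of 22 alternatives: median-of-ratios scaling (-0.39, adjusted p = 0.0455), quantile normalization (-0.49, adjusted p = 0.0136), edgeR (-0.42, adjusted p = 0.0357), DESeq2 (-0.40, adjusted p = 0.0365) and the pseudogene covariate (-0.51, adjusted p = 0.0242). In bone marrow Smad3 was at 44.2 to 49.0 CPM in WT and 32.3 to 50.4 CPM with ETV6-RUNX1, which overlap (adjusted p = 0.523).

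Smad4, the common partner of the activated SMADs, was higher in every ETV6-RUNX1 bone marrow library (37.2, 36.8 and 41.3 CPM) than in any WT one (28.4, 27.6 and 32.1 CPM). The ratio of means was 1.31 and the log2 difference of 0.38 ± 0.14 SE did not pass (adjusted p = 0.0679 by limma; lowest over the alternatives 0.0511). In fetal liver, 26.8, 29.5 and 27.8 CPM in WT and 29.1, 31.8 and 36.1 CPM with ETV6-RUNX1 overlapped, with a difference of 0.19 (interval -0.10 to 0.49, adjusted p = 0.277).

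Smad7 encodes the inhibitory SMAD that blocks the type I receptor and is a classical early target of the pathway. It had the lowest level per exon length of the 10 genes in every group. The WT fetal liver libraries held 1.12, 1.92 and 1.10 CPM and the ETV6-RUNX1 libraries 1.53, 3.09 and 5.13 CPM, so that replicate 1 with ETV6-RUNX1 lay under replicate 2 of WT. The mean was 2.35 times higher and the test passed narrowly (limma log2 difference 0.76 ± 0.27 SE, adjusted p = 0.034), on a scale that understates the change of genes this low. The call was lost on leaving out any of 4 fetal liver libraries: WT replicate 1 (adjusted p = 0.0964), WT replicate 3 (0.111), ETV6-RUNX1 replicate 2 (0.077) or ETV6-RUNX1 replicate 3, without which the difference was 0.45 (adjusted p = 0.159). In bone marrow 0.705, 0.779 and 0.673 CPM in WT and 1.84, 1.58 and 1.24 CPM with ETV6-RUNX1 did not overlap, with a 2.16-fold higher mean, and the log2 difference of 0.56 did not pass (interval -0.01 to 1.14, adjusted p = 0.155).

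Skil encodes SnoN, a corepressor that binds SMAD complexes and is itself induced by them (chr3:31095058-31122577, plus strand). It changed most of the 10 genes in fetal liver. Its WT fetal liver libraries held 5.60, 4.57 and 3.74 CPM and the ETV6-RUNX1 ones 37.8, 28.7 and 47.8 CPM, an 8.22-fold higher mean (limma log2 difference 2.78 ± 0.29 SE, adjusted p = 5.43e-06). In bone marrow Skil rose from 1.87, 4.44 and 4.83 CPM to 10.4, 11.4 and 6.34 CPM, 2.52 times in the means (1.17 ± 0.29, adjusted p = 0.0138), and the groups overlapped in neither tissue. The order of the group means was ETV6-RUNX1 fetal liver, ETV6-RUNX1 bone marrow, WT fetal liver and WT bone marrow, of which the last 2 did not differ beyond their spread (0.31 ± 0.29, adjusted p = 0.539).

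The effect on Skil was larger in fetal liver than in bone marrow by 1.61 ± 0.41 on the log2 scale (adjusted p = 0.0263 by limma), and among ETV6-RUNX1 libraries Skil was 4.07 times higher in fetal liver (1.92 ± 0.29, adjusted p = 0.000235). The interaction of Skil passed in 11 of 21 alternatives, with estimates from 1.05 to 1.93 and adjusted p from 0.00127 to 0.305. It was lost without WT fetal liver replicate 2 (adjusted p = 0.0585) or 3 (0.0715), ETV6-RUNX1 fetal liver replicate 1 (0.0586) or 3 (0.0529), WT bone marrow replicate 2 (0.074) or 3 (0.0686), or ETV6-RUNX1 bone marrow replicate 3 (0.0567). With the pseudogene share as a covariate it was 1.05 (adjusted p = 0.305). The bone marrow rise of Skil alone missed the threshold without ETV6-RUNX1 bone marrow replicate 2 (1.02, adjusted p = 0.0619).

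Set against each other per kilobase of exon, Eng was the most abundant of the 10 genes in WT fetal liver (10.2 CPM per kb) and Smad7 the least (0.306 CPM per kb). Smad2, Smad3 and Smad4 held 5.56, 7.40 and 7.55 CPM per kb there, above Tgfbr1 at 2.5 and Tgfbr2 at 1.21 CPM per kb. With ETV6-RUNX1 in fetal liver, Tgfbr1 reached 5.99 CPM per kb and Tgfbr2 3.18 CPM per kb, and Skil moved from 0.478 to 3.93 CPM per kb. Tgfbr1 exceeded Tgfbr2 in the means of 3 groups, and in ETV6-RUNX1 bone marrow Tgfbr2 was ahead, at 4.28 against 3.59 CPM per kb.

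Between tissues, 0 of the 10 genes passed among the WT libraries (limma, adjusted p under 0.05), where 11.1% of all genes did, 3.38% higher and 7.77% lower in fetal liver. Before adjustment over all genes, the limma p was under 0.05 for 2 of them, Tgfb1 (0.0252) and Tgfbr3 (0.0208), and edgeR and DESeq2 also called 0. Without WT bone marrow replicate 1, 2 of the 10 passed, Tgfbr2 (-0.65, adjusted p = 0.0316) and Tgfbr3. Among the ETV6-RUNX1 libraries 2 of the 10 passed, Skil higher and Eng lower in fetal liver, with 28.6% of all genes called, 10.4% higher and 18.2% lower. Eng was 0.668 times its bone marrow level there (log2 difference -0.58 ± 0.18 SE, adjusted p = 0.0234), a call kept in 14 of 22 alternatives, with adjusted p from 0.00509 to 0.101. It was lost without ETV6-RUNX1 fetal liver replicate 1 (adjusted p = 0.101) or 2 (0.0729) or ETV6-RUNX1 bone marrow replicate 2 (0.0755), with all genes with reads tested (0.0542) and with the pseudogene share as a covariate (0.0638). With median-of-ratios scaling, edgeR and DESeq2 the difference was -0.42 and also missed (adjusted p = 0.073, 0.0836 and 0.072). These comparisons reuse the libraries of the genotype comparisons and are not independent of them.

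The rest of the pathway was followed through 6 gene lists. Of 18 other ligands of the TGF-beta superfamily 8 passed the filter, of which 3 rose and 1 fell in fetal liver, where 43.1% of all genes were called, and 2 rose and 0 fell in bone marrow, where 19.4% were. In bone marrow 1 of the 8 was lower at an unadjusted limma p under 0.05. There edgeR called 2 higher and 1 lower, and DESeq2 3 higher and 1 lower. Bmp4, a bone morphogenetic protein, rose from 0.319 ± 0.174 to 4.26 ± 2.55 CPM in fetal liver (SD, n = 3; limma log2 difference 1.90, adjusted p = 0.000253) and from 2.00 ± 0.273 to 8.31 ± 3.81 CPM in bone marrow (1.57, adjusted p = 0.00418). Gdf3 rose in both tissues too, from 1.99 to 7.41 CPM in fetal liver and from 4.74 to 16.7 CPM in bone marrow. Inhba, the activin A subunit, rose in fetal liver from 0.382 to 4.43 CPM (1.99, adjusted p = 0.000222) and not detectably in bone marrow (0.10, adjusted p = 0.849), and its interaction passed (1.89, adjusted p = 0.0191). That interaction of Inhba held in 14 of 20 alternatives. It was lost in edgeR (3.16, adjusted p = 0.127), with a pseudocount of 0.1 (3.8, 0.0699), with the pseudogene covariate (0.0957), with all genes with reads (0.0805), and without WT fetal liver replicate 3 (0.0561) or WT bone marrow replicate 2 (0.0562). Bmp8a fell in fetal liver from 6.14 to 2.33 CPM. In bone marrow Bmp8a was at 0.818 to 1.1 CPM in WT and 0.155 to 0.526 CPM with ETV6-RUNX1. These did not overlap but did not pass by limma, and they are named outside the rule after they were seen. The other 10 ligands, Tgfb2 among them at 0.273 CPM or less in every library, were too low to test.

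Of 20 genes that hold TGF-beta in its latent form or release it, or bind other ligands of the family, 12 were tested, and in fetal liver 8 were higher, 0 lower and 4 did not pass, with a median log2 difference of 0.96 against 0.08 over all genes. Of all genes 24.8% were called higher there. For the same 12, edgeR called 7 higher and DESeq2 6. None of the 12 was lower at an unadjusted p under 0.05, in edgeR or in DESeq2, in either tissue. Thrombospondin 1 (Thbs1), a matrix protein known to activate latent TGF-beta, was at 86.7, 80.4 and 57.4 CPM in WT fetal liver and 2079.5, 2213 and 1692 CPM with ETV6-RUNX1 (limma log2 difference 4.73 ± 0.70 SE, adjusted p = 0.000119). Lrrc32, or GARP, which tethers latent TGF-beta to the cell surface, held 5.17, 6.27 and 5.51 CPM in WT fetal liver and 33.9, 32.4 and 26.5 CPM with ETV6-RUNX1 (2.26 ± 0.23, adjusted p = 3.91e-06). Neither group pair overlapped. Fbn1, a fibrillin that binds the latent complex, rose from 0.210 to 3.61 CPM (1.90, adjusted p = 1.24e-05) and Fstl1 from 53.3 to 114 CPM (1.10, adjusted p = 0.0012). Nrros, which anchors latent TGF-beta on myeloid cells and is named outside the rule after its values were seen, rose slightly, from 275 ± 24.4 to 349 ± 29.7 CPM (SD, n = 3; limma 0.34, adjusted p = 0.0361). Ltbp1, which links the latent complex to matrix, was at 20.8, 10.9 and 11.7 CPM in WT and 48.9, 49.1 and 25.3 CPM with ETV6-RUNX1, with no overlap, and missed the threshold (1.44, adjusted p = 0.0546).

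In bone marrow 3 of the 12 latency genes rose and 0 fell, with a median of 0.39 against 0.13, where 14.4% of all genes were called higher. There edgeR and DESeq2 each called 1 of the 12 higher. They were Furin, the protease that cleaves the TGF-beta precursor, from 16.8 to 36.5 CPM (limma log2 difference 1.06, adjusted p = 0.00519), Mmp14 from 0.545 to 2.18 CPM (1.01, adjusted p = 0.0114), and the latent complex protein Ltbp3 from 8.36 to 26.6 CPM (1.53, adjusted p = 0.0414). The Ltbp3 call held in 8 of 22 alternatives and that of Mmp14 in 17 of 21. Mmp14 missed in edgeR (adjusted p = 0.118), DESeq2 (0.0809), with a pseudocount of 0.1 (0.0622) and with the pseudogene covariate (0.0607). Ltbp3 missed with the last of these (0.85, 0.225), in edgeR (0.083), with median-of-ratios scaling (0.0532) and with quantile normalization (0.0788). Ltbp3 was lost on leaving out any 1 of the 6 bone marrow libraries (adjusted p from 0.0501 without ETV6-RUNX1 replicate 3 to 0.138 without ETV6-RUNX1 replicate 2) or WT fetal liver replicate 2 (0.053). Lrrc32 was low in bone marrow, with means of 0.725 CPM in WT and 0.739 CPM with ETV6-RUNX1. Thbs1 held 7.20, 8.18 and 14.6 CPM in WT bone marrow and 12.3, 95.8 and 3.93 CPM with ETV6-RUNX1, where replicate 2 stood apart. In fetal liver Furin was at 12.4 to 23.0 CPM in WT and 26.3 to 35.1 CPM with ETV6-RUNX1. Ltbp3 was there at 0.757 to 1.92 and 3.36 to 26.3 CPM, and neither pair overlapped. Mmp14 did overlap (0.0 to 0.682 and 0.377 to 0.87 CPM). These fetal liver values are named outside the rule after they were seen. None of Furin, Ltbp3 and Mmp14 passed the limma interaction test.

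The interaction was past the threshold for 4 of the 12 latency genes, Lrrc32 (2.30, adjusted p = 0.000666), Fbn1 (1.43, adjusted p = 0.0114), Thbs1 (3.92, adjusted p = 0.0255) and Fstl1 (1.05, adjusted p = 0.0493), all with the larger effect in fetal liver. Of all genes 9.19% passed that test, 5.56% with a larger difference in fetal liver. The Thbs1 interaction passed in 10 of 21 alternatives and that of Fstl1 in 6 of 21. For Thbs1 it was 2.88 in edgeR (adjusted p = 0.106), 2.90 in DESeq2 (0.0921) and 2.18 with the pseudogene covariate (0.365), and with that covariate it was 0.66 for Fstl1 (0.396) and 1.37 for Fbn1 (0.101). Thbs1 lost it without WT fetal liver replicate 2 (adjusted p = 0.0526) or 3 (0.0621), ETV6-RUNX1 fetal liver replicate 1 (0.0561) or 2 (0.0595), WT bone marrow replicate 2 (0.0508) or 3 (0.063), or ETV6-RUNX1 bone marrow replicate 1 (0.0593). Fstl1 lost it without any 1 of 10 libraries, the highest adjusted p being 0.127 without WT bone marrow replicate 2, and kept it without WT fetal liver replicate 2 or WT bone marrow replicate 1. Thbs1 and Lrrc32 are known from platelets and megakaryocytes. The summed level of 7 megakaryocyte markers was 2942 to 4443 CPM in WT fetal liver and 6928 to 7480.3 CPM with ETV6-RUNX1, and in bone marrow 1171 to 1632 CPM in WT and 333, 494 and 1924 CPM in the 3 ETV6-RUNX1 libraries. Of the 7, all of them above the floor in every library, 4 were higher and 1 lower in fetal liver, and 0 higher and 1 lower in bone marrow. Over all genes tested, 24.8% were higher and 18.3% lower in fetal liver, and 14.4% and 4.93% in bone marrow. The bone marrow library with the marker sum of 1924 CPM was replicate 2, which also had the highest Thbs1. The part of megakaryocytic cells in the Thbs1 and Lrrc32 values was not tested.

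**Figure D3:**
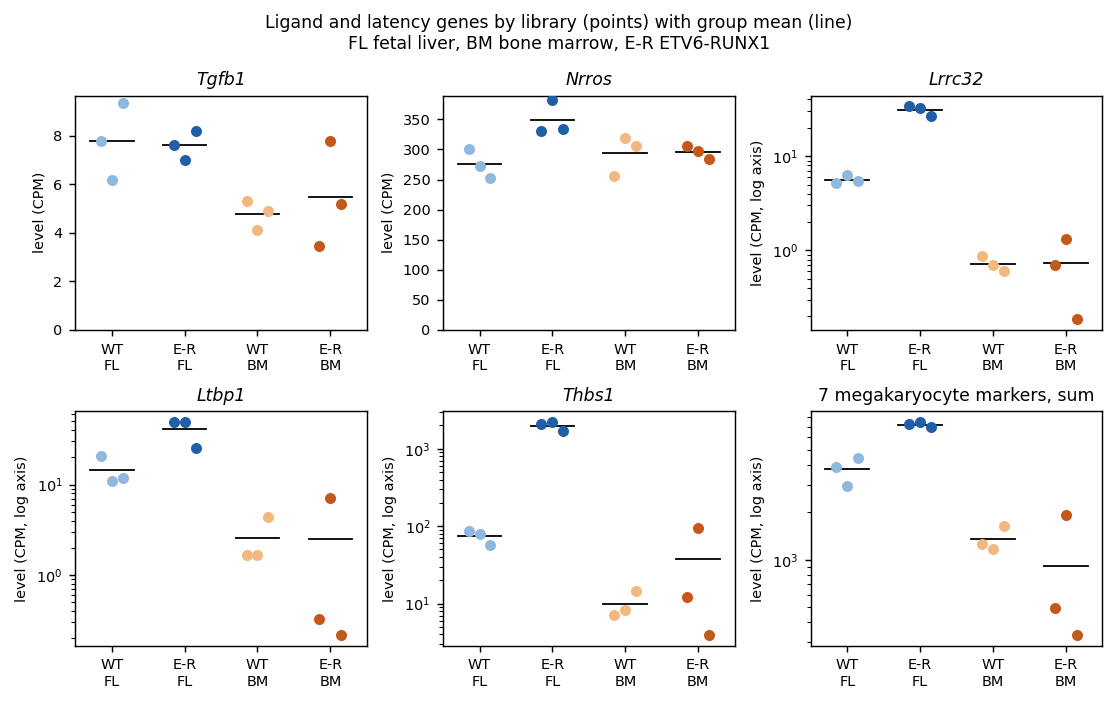
Level in CPM (y axis; linear from 0 for Tgfb1 and Nrros, logarithmic for the rest) of the ligand and of genes of its latent complex, and the sum of 7 megakaryocyte markers, in the 4 groups (x axis); points are libraries and lines group means. Thbs1 at 1692 to 2213 CPM and Lrrc32 at 26.5 to 33.9 CPM stand highest in ETV6-RUNX1 fetal liver, as does the marker sum, whereas Tgfb1 does not.

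Of 16 other receptors and coreceptors only 6 were high enough to test. In fetal liver 2 rose and 1 fell (43.1% of all genes were called), and in bone marrow 0 of the 6 passed by limma (19.4% of all genes were called). There 1 was higher at an unadjusted limma p under 0.05, and edgeR and DESeq2 called 0. Bmpr2, the type II receptor for bone morphogenetic proteins, rose in fetal liver from 17.8 ± 2.07 to 41.8 ± 4.27 CPM (SD, n = 3; log2 difference 1.19, adjusted p = 0.00026) and was 27.1 against 37.2 CPM in bone marrow (0.47, adjusted p = 0.103). Acvrl1, the type I receptor that works with endoglin in endothelium, rose from 0.270 to 1.95 CPM in fetal liver (1.20, adjusted p = 0.00335), and the activin receptor Acvr2b fell from 3.78 to 1.59 CPM (-0.88, adjusted p = 0.0157). The Acvr2b call was lost without WT fetal liver replicate 1 (adjusted p = 0.0592) or 3 (0.0532) or ETV6-RUNX1 fetal liver replicate 3 (0.0642), with all genes with reads (0.0668) and with the pseudogene covariate (0.0713).

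Of the other SMADs 3 of 4 were tested and 0 passed in fetal liver by limma (1 was lower at an unadjusted p under 0.05, and edgeR and DESeq2 called 0). The share of all genes called was 43.1% in fetal liver and 19.4% in bone marrow. Smad1, which carries bone morphogenetic protein signals, rose in bone marrow from 33.5 ± 1.81 to 51.3 ± 7.41 CPM (SD, n = 3; limma log2 difference 0.59, adjusted p = 0.0217), and its interaction was -0.81 (adjusted p = 0.0421), with 25.3 and 21.4 CPM in WT and ETV6-RUNX1 fetal liver. The bone marrow call of Smad1 was lost without WT bone marrow replicate 1 (adjusted p = 0.055) or ETV6-RUNX1 bone marrow replicate 2 (0.096), and also with median-of-ratios scaling (0.45, adjusted p = 0.0621), quantile normalization (0.43, 0.0671) and edgeR (0.46, 0.0605). The interaction passed in 9 of 21 alternatives. The interaction was lost without any of 8 libraries, WT fetal liver replicates 1 and 3, ETV6-RUNX1 fetal liver replicates 1 and 2, WT bone marrow replicates 2 and 3 and ETV6-RUNX1 bone marrow replicates 1 and 2, with adjusted p of 0.0681 to 0.0902.

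Among 22 tested regulators of receptors and SMADs (of 24), 8 rose and 2 fell in fetal liver, near the 43.1% called among all genes, and 5 rose and 0 fell in bone marrow, near the 19.4% among all genes. In bone marrow edgeR called 2 of the 22 higher and DESeq2 5. By limma 0 of the 22 passed the interaction test, which 9.19% of all genes passed. At an unadjusted p under 0.05 that test gave 3 higher and 5 lower, edgeR called 0 and DESeq2 3 higher and 2 lower. Ski, the sister corepressor of SnoN, rose in both, from 16.2 ± 1.68 to 24.9 ± 2.31 CPM in fetal liver (SD, n = 3; limma log2 difference 0.60, adjusted p = 0.00519) and from 16.3 ± 1.25 to 24.6 ± 0.467 CPM in bone marrow (0.57, adjusted p = 0.0171). The bone marrow call of Ski was lost without WT bone marrow replicate 3 (0.0529) or ETV6-RUNX1 bone marrow replicate 1 (0.0526), with median-of-ratios scaling (0.43, 0.0579), in edgeR (0.44, 0.0516) and with the 6 bone marrow libraries alone (0.0621), and with quantile normalization its differences were 0.33 in fetal liver (adjusted p = 0.092) and 0.32 in bone marrow (0.159). In fetal liver Smurf2, a ubiquitin ligase that acts with SMAD7 on the receptors, rose from 18.0 to 29.1 CPM (0.67, adjusted p = 0.00381), Rnf111, a ligase that degrades SMAD7 and SnoN, from 20.5 to 38.4 CPM (0.87, adjusted p = 0.00405), and the adaptor Sptbn1 from 235 to 355 CPM (0.60, adjusted p = 0.00538). Among those that fell was the ligase Nedd4l (-0.60, adjusted p = 0.0435), named outside the rule after its values were seen. In bone marrow the other calls were Pias4 (0.89, adjusted p = 0.0238), Fkbp1a, the FKBP12 protein that sits on the type I receptor (1.49, adjusted p = 0.0344), Stub1 (1.14, adjusted p = 0.037) and, named outside the rule after its values were seen, the ligase Smurf1 (0.65, adjusted p = 0.0381). The bone marrow calls of Pias4, Fkbp1a and Stub1 were each lost without WT bone marrow replicate 1 (adjusted p = 0.0585, 0.108 and 0.081), ETV6-RUNX1 bone marrow replicate 1 (0.0661, 0.133 and 0.0902) or ETV6-RUNX1 bone marrow replicate 2 (0.0845, 0.125 and 0.121), and that of Fkbp1a also without WT bone marrow replicate 2 (0.0722). They were lost too with the 6 bone marrow libraries alone (0.082, 0.0543 and 0.0973) or all genes with reads (0.0723, 0.13 and 0.126), that of Fkbp1a with the replicate block (0.0552) and that of Stub1 in edgeR (0.0804).

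**Figure D4:**
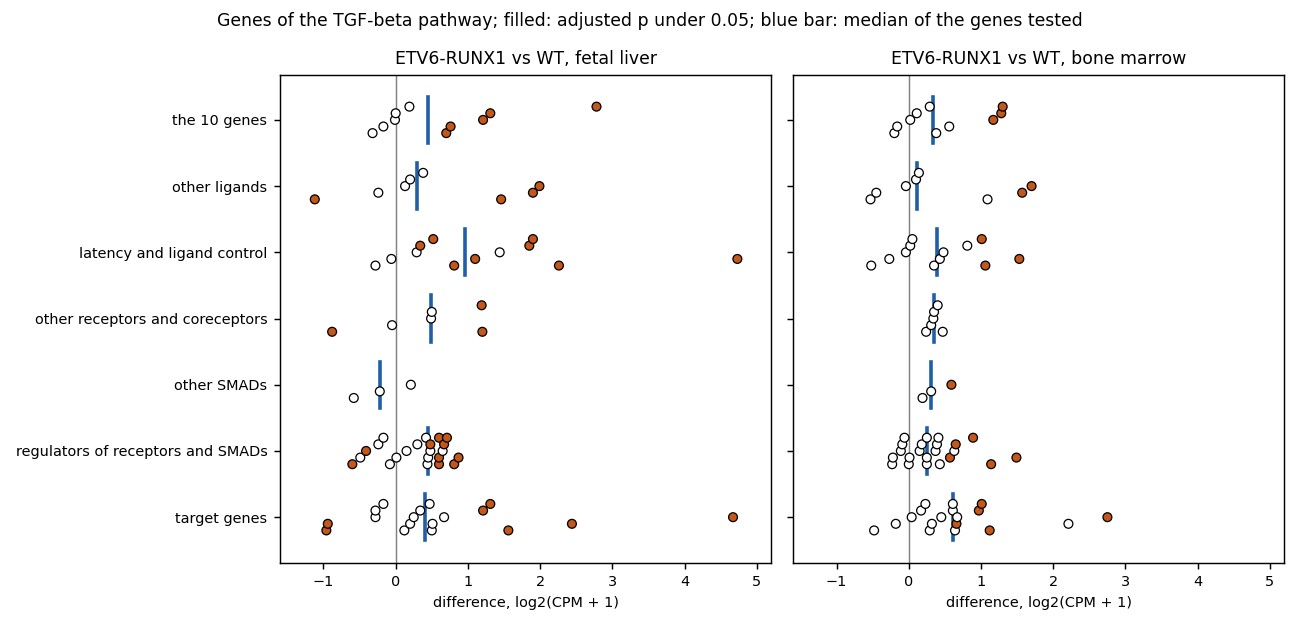
Difference between ETV6-RUNX1 and WT on the log2(CPM + 1) scale (x axis) for each tested gene of the 10 and of 6 other pathway lists (y axis), in fetal liver (left) and bone marrow (right); each circle is 1 gene, filled where adjusted p was under 0.05, and the blue bar is the list's median. The latency genes have the highest median in fetal liver, 0.96, and the point farthest right in that list is Thbs1 at 4.73.

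Of 26 genes known as TGF-beta targets in other cells 18 were tested, and they moved both ways. In fetal liver 5 rose and 2 fell, and in bone marrow 5 rose and 0 fell, with list medians of 0.40 and 0.61 against 0.08 and 0.13 over all genes. The shares of all genes called were 43.1% and 19.4%, so the fetal liver count of targets is not above the background. Junb, an AP-1 subunit induced early by SMADs and by many other signals, rose from 2.43 to 21.4 CPM in fetal liver (limma log2 difference 2.44, adjusted p = 0.00068) and from 2.23 to 22.9 CPM in bone marrow (2.75, adjusted p = 0.00142). Tgfbi, a matrix protein named for its induction by TGF-beta, rose in fetal liver from 7.35 ± 2.95 to 22.9 ± 2.89 CPM (SD, n = 3; 1.56, adjusted p = 0.000135), and in bone marrow its difference of 0.64 missed the threshold (adjusted p = 0.0701). Zeb2, a transcription factor needed in HSC differentiation, rose from 52.4 to 122 CPM in fetal liver and from 43.4 to 69.0 CPM in bone marrow (limma adjusted p = 0.0444, the bone marrow value named outside the rule after it was seen). The other fetal liver rises, named outside the rule after their values were seen, were the stress factor Atf3 (0.106 to 28.8 CPM) and the cell cycle inhibitor Cdkn1b (14.7 to 38.3 CPM).

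Myc, which TGF-beta represses in epithelial cells, held 266, 229 and 226 CPM in WT fetal liver and 104, 112 and 157 CPM with ETV6-RUNX1, with no overlap (limma log2 difference -0.96 ± 0.16 SE, adjusted p = 0.000253). In bone marrow it was at 329, 399.9 and 371 CPM and 424, 369 and 337 CPM, which overlap, and its interaction passed (-1.0, adjusted p = 0.0131), except with the pseudogene covariate (0.0815). Dusp4, a phosphatase of MAP kinases, likewise fell in fetal liver, from 3.89 to 1.55 CPM (-0.94, adjusted p = 0.000917), with an interaction of -1.11 (adjusted p = 0.0162) that was lost with the pseudogene covariate (0.0908) or all genes with reads tested (0.0605). In bone marrow, Bhlhe40 rose from 51.7 ± 7.67 to 105 ± 9.63 CPM (SD, n = 3; 1.01, adjusted p = 0.00309), Itgae, the integrin chain that TGF-beta induces on T cells, from 0.686 to 2.29 CPM (0.97, adjusted p = 0.0121), and the cell cycle inhibitor Cdkn1a from 53.4 to 120 CPM (1.12, adjusted p = 0.0392). The Cdkn1a call held in 12 of 22 alternatives. It was lost with median-of-ratios scaling (adjusted p = 0.0661), in edgeR (0.0633), with the replicate block (0.0575), with the pseudogene covariate (0.0792) and with all genes with reads (0.135). It was also lost without WT bone marrow replicate 1 (adjusted p = 0.0542), 2 (0.118) or 3 (0.065) or ETV6-RUNX1 bone marrow replicate 1 (0.0581) or 2 (0.161). The 8 targets not tested included Id3, Ccn2 and Col1a1, at most 0.714 CPM in any library. The lists were compiled with earlier results of these data known, so their counts describe these genes and are not independent evidence of a direction.

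Across the 12 libraries, the gene whose profile was most like that of Tgfbr2 was Pitpnm1 (Pearson r of log2(CPM + 1) 0.979), followed by B3gnt3 (0.979). For Skil these were the kinase Prkcq (0.983) and the adaptor Pik3ap1 (0.982), for Eng Os9 (0.972) and Itm2c (0.970), and for Tgfbr1 the angiopoietin receptor Tek (0.969) and Lcor (0.967). In WT fetal liver Tek held 28.4, 25.4 and 13.5 CPM, lowest in the library where Tgfbr1 was lowest, and with ETV6-RUNX1 88.1, 127 and 75.9 CPM, highest where Tgfbr1 was highest. These values describe likeness over 12 libraries that share the same 4 groups.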

How the data were processed

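RNA-seq libraries from 12 samples (4 groups of 3) were made with a stranded low-input total RNA kit and sequenced as paired ends, per the labels' protocols. The submitters' processing notes name bcl2fastq, STAR 2.5.1a, Subread featureCounts 1.4.6-p5, Salmon 0.8.2, edgeR, limma and GRCm38, without roles. The authors deposited 1 table of CPM per gene, with 40757 rows, of which 276 repeat a gene ID with the same values and were dropped. All CPM values (100%, within 0.01 of a whole number) were multiples of 1 read, so read counts were recovered. The counts served the alternatives edgeR 4.0.16 (quasi-likelihood, TMM) and DESeq2 1.42.0, which called 6178 and 6540 genes in fetal liver and 2739 and 3297 in bone marrow.

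The main test was limma 3.58.1 in R 4.3.3, with a trended prior, on log2(CPM + 1), with the 4 groups as coefficients, 8 residual degrees of freedom and Benjamini-Hochberg adjustment over the 14271 genes that reached 1 CPM in 3 or more libraries. The code was tested on simulated data. Genomic positions are from GENCODE M21, which held 99.65% of the gene IDs, and promoters from RefSeq. Of each pathway list the text names at most 4 called genes per comparison with the smallest p, and says where others are named. The 10 genes and the lists were chosen with earlier results of these data known. Alternatives were a pseudocount of 0.1, 2 other filters, median-of-ratios and quantile scaling, a replicate block, the 6 libraries compared alone, a pseudogene covariate and leaving out each library. No library was left out of the main test. Some listed genes are counted but not reported by name here.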

Additional observations from a re-analysis of the deposited data

Results flagged for a closer look

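The effect of ETV6-RUNX1 in fetal liver minus that in bone marrow passed the limma interaction test for the genes below, on the log2(CPM + 1) scale. Skil differed by 1.61 (adjusted p = 0.0263), with the larger rise in fetal liver. Lrrc32 differed by 2.30 (adjusted p = 0.000666), Thbs1 by 3.92 (adjusted p = 0.0255) and Fbn1 by 1.43 (adjusted p = 0.0114), all genes of ligand storage or activation, and the follistatin-like gene Fstl1 by 1.05 (adjusted p = 0.0493). Inhba differed by 1.89 (adjusted p = 0.0191). Smad1 differed by -0.81 (adjusted p = 0.0421), Myc by -1.0 (adjusted p = 0.0131) and Dusp4 by -1.11 (adjusted p = 0.0162). Under the alternatives, several of these calls were often lost. The interaction passed in 11 of 21 for Skil, 10 of 21 for Thbs1, 9 of 21 for Smad1, 6 of 21 for Fstl1 and 14 of 20 for Inhba. It passed in 21 of 21 for Lrrc32, 20 of 21 for Myc, 19 of 20 for Fbn1 and 18 of 20 for Dusp4.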

How the results depend on the processing

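The 50 results on the 10 genes, of which 11 were past the threshold, gave 1085 values under the alternatives. In these, 27 calls were lost, 30 were gained, 0 called values changed sign and 66 uncalled values did. The fetal liver calls of Tgfbr1, Tgfbr2, Eng and Skil and the bone marrow calls of Tgfbr2 and Eng held in 22 of 22. Skil in bone marrow held in 20 of 22, and missed with all genes with reads tested (adjusted p = 0.0526). Smad7 in fetal liver also missed with all such genes (adjusted p = 0.106), with quantile normalization (0.0753) and with the 6 fetal liver libraries alone (0.0551), and its difference was 1.15 in DESeq2.

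For the interaction, 0 of the 10 genes passed with a pseudocount of 0.1, with all genes with reads or with the pseudogene covariate, 2 passed in DESeq2 (Skil and Tgfbr1), and 0 to 2 on leaving out 1 library. Over all genes the interaction count of 1311 became 767 with all genes with reads, 540 with the pseudogene covariate and 731 to 2332 on leaving out 1 library. The bone marrow count of 2763 became 1601 with the 6 libraries alone and 1520 (without ETV6-RUNX1 bone marrow replicate 2) to 2924 on leaving out 1 library. Between tissues in WT, 0 to 2 of the 10 passed on leaving out 1 library, and 868 to 2781 genes (1591 with all). With ETV6-RUNX1, 2 of the 10 became 1 with all genes with reads, 5 with quantile normalization, 4 with the 6 libraries alone, 4 with the pseudogene covariate and 1 to 4 on leaving out 1 library. WT bone marrow replicate 1 gave the highest, and WT bone marrow replicate 2 the lowest, of the interaction and WT tissue counts over all genes.

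Scaling moved the median of all genes in bone marrow from 0.13 to 0.01 with median-of-ratios, and the share of calls that were higher from 74.5% to 53.0% (48.5% with quantile normalization, 50.5% in edgeR, 52.0% in DESeq2). In fetal liver it moved from 57.6% to 42.0% with quantile normalization. In the interaction it moved from 60.6% to 73.8% with median-of-ratios and 73.5% in edgeR. Between tissues it moved from 36.3% to 57.7% with ETV6-RUNX1 and from 30.3% to 40.7% in WT, both with median-of-ratios. With the replicate block, 5838 genes passed in fetal liver, 2334 in bone marrow, 1033 in the interaction, 1425 between tissues in WT and 3739 with ETV6-RUNX1, and the counts among the 10 were the same. The replicate numbers pair nothing in the labels, and same-numbered libraries correlated by -0.085 to 0.221 in fetal liver and -0.404 to 0.118 in bone marrow after the group means were removed. Of 6 libraries, 3 and 1 correlated best with their own number. Depth limits the lowest genes: at 0.673 CPM Smad7 was well above the floor of 3 reads, whereas targets such as Ccn2 were near it.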
